A study of Mus musculus with 6 samples.

Results

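Heat shock proteins and the DNAJ co-chaperones that work with them were examined as a group of genes in Oct6 KO and WT epiblast-like cells (EpiLCs). The group was defined by gene names alone: every protein-coding gene whose symbol begins with Hspa, Hspb, Hspd, Hspe or Hsph and a number, with Hsp90, or with Dnaja, Dnajb or Dnajc and a number, and that had a count in at least 1 library. The names matched 70 protein-coding genes, and 68 of them had a count, out of 55416 rows in the table and 17675 protein-coding genes with a count. Dnajb7 and Dnajb8 had no count in any of the 6 libraries and fell just outside, whereas Hspb7 with 1 count in all and Hspb3 with 3 counts lay just inside. RNA-seq was performed on total RNA from 3 WT libraries of the parental mouse embryonic stem cell (mESC) line 46C, which carries a GFP reporter of the neural gene Sox1, and from 3 Oct6 KO libraries. All KO libraries came from 1 clone of 46C, homozygous for an insertion in Oct6 (gene symbol Pou3f1), so that an effect of the genotype and of the clone cannot be told apart. Both groups had been differentiated for 48 h in N2B27 medium with 1% KSR, bFGF and Activin A on fibronectin, with no other treatment, and the libraries carry replicate numbers 1 to 3 in both groups.

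HSP70 proteins bind unfolded stretches of other proteins and release them in a cycle driven by ATP. J proteins (the DNAJ families) deliver clients and stimulate the ATPase of HSP70, while HSP110 proteins exchange its nucleotide. HSP90 acts later on client proteins such as kinases and receptors, small HSPs hold denatured proteins without using ATP, and the HSP60 and HSP10 chaperonin folds proteins inside the mitochondrion. Some of these genes are expressed in all cells, and others are induced by heat shock factor 1 (HSF1), whereas endoplasmic reticulum (ER) chaperones respond to the unfolded protein response. Pluripotent stem cells are known for abundant chaperones.

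The libraries held between 10995505 and 14680930 counts on genes, and mitochondrial genes took between 0.445% and 0.573% of them. Values are given below as CPM, the counts scaled to the TMM-normalized library size, and log2 fold changes as KO minus WT with their standard error (SE) from edgeR. Markers of EpiLCs were present in all libraries, where the 8 genes of the list summed to between 3163 and 3532 CPM, and Otx2, Fgf5 and Sox2 were the 3 of 8 that were higher in KO cells. With the replicate number as a block, Dnmt3a was also higher (adjusted p = 0.039 from edgeR), and Dnmt3b (0.055) and Pou5f1 (0.066) were lower. Markers of other cell types were low and moved between the groups. Endoderm markers summed to between 2.09 and 3.82 CPM in WT and between 3.23 and 9.45 CPM in KO (Gata6 higher, of 2 tested among 4). Mesoderm markers summed to between 5.67 and 6.48 CPM in WT and between 8.62 and 11.6 CPM in KO (Eomes higher, the only 1 tested of 3). Neural markers summed to between 3.98 and 4.69 CPM in WT and between 1.2 and 2.62 CPM in KO (Sox1 lower, the only 1 tested of 3). Fibroblast markers summed to between 2.75 and 3.64 CPM in WT and between 1.37 and 1.88 CPM in KO (Thy1 lower, the only 1 tested of 3). Trophoblast markers, none of them tested, summed to at most 0.819 CPM. Col1a1, Mixl1, Neurog2, Cdx2 and Elf5 were each at 0 in at least 1 library. Their part in the results was not tested, and for the members measured at a few CPM these sums are of a like size. In bulk samples, fewer cells of a type and less RNA per cell cannot be told apart. The targeted gene had 142 ± 19.4 CPM (SD, n = 3) in WT and 132 ± 7.59 CPM in KO, and its level does not check the genotype, because an insertion need not lower the count of a gene.

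Of the 68 genes, 64 had enough counts for edgeR's filter and were tested. At an adjusted p below 0.1, 20 of them differed between KO and WT EpiLCs, or 31.2%, where 24.3% of all 15746 genes tested and 26.8% of protein-coding genes did. The 9 that rose in KO cells stood beside 11.8% of all genes, and the 11 that fell beside 12.5%. Most changes were small: only Dnaja4 and Hspb2, both lower in KO cells, passed with a log2 fold change of 1 or more in size, against 6.21% of all genes. The KO libraries lay entirely above the WT libraries for 11 members and entirely below for 16, and this lack of overlap was seen in 33.6% of all genes tested. The median log2 fold change was 0.0052 over the members and 0.0014 over all genes. With the replicate number as a block, 25 members passed the threshold (11 higher, 14 lower), against 30.3% of all genes.

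**Figure D1:**
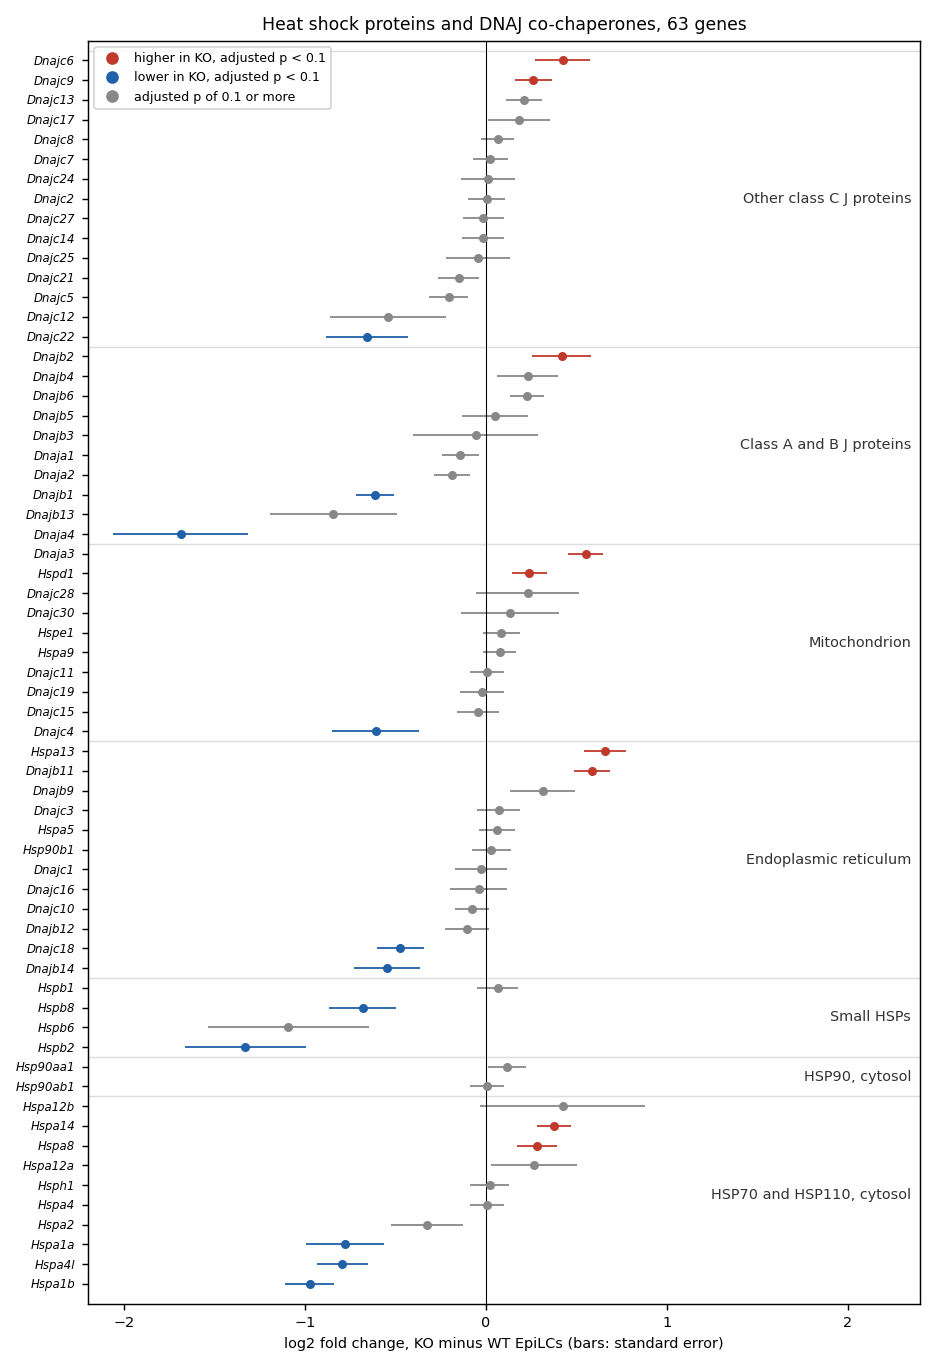
Log2 fold change (x axis, KO minus WT EpiLCs) of 63 of the 64 members tested, by group, with bars for the standard error and colour for the direction of those with an adjusted p below 0.1 by edgeR. The 9 higher and 11 lower members lie on both sides of 0 in most groups, Dnaja4 and Hspb2 farthest out at −1.69 and −1.33, while both HSP90 genes of the cytosol lie near 0.

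A few genes carried most of the message. The members took between 1.72% and 1.85% of all counts in WT libraries and between 1.81% and 1.93% in KO libraries, so that the groups overlapped. Hsp90aa1, Hsp90ab1, Hspa8, Hspd1 and Hspa9 alone held between 62.2% and 65.7% of the members' counts. Per kb of transcript, the scale on which genes can be compared, the order in WT cells was Hsp90aa1 at 1238 ± 174 CPM per kb, Hsp90ab1 at 944 ± 77.8, Hspa8 at 831 ± 99.4, Hspe1 at 554 ± 27.9 and Hspd1 at 506 ± 43.2 (SD, n = 3), in which Hsp90ab1 and Hspa8, and also Hspe1 and Hspd1, differed by less than the sum of their SDs. Hspa9 followed at 350.4 ± 7.72 CPM per kb, then Hspb1 at 206 ± 23.4, Hspa4 at 194 ± 13.8, Hsp90b1 at 179.9 ± 25.5 and Hspa5 at 155 ± 9.70. From Hspb1 to Hspa5, neighbours in this order also differed by less than the sum of their SDs, whereas Hspa9 stood apart. The inducible Hspa1b stood at 19.5 ± 2.54 CPM per kb and Hspa1a at 3.19 ± 0.257. At the other end Hspa12b had 0.203 ± 0.0454 CPM per kb, the lowest level among the tested members.

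**Figure D2:**
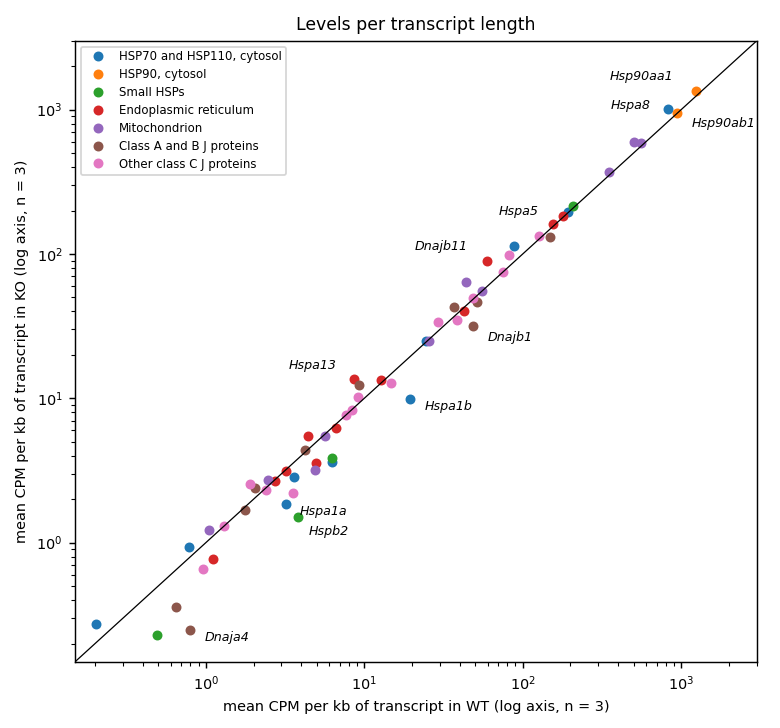
Mean CPM per kb of transcript in KO (y axis) against WT EpiLCs (x axis), both log axes with n = 3 libraries, for 63 of the 64 members tested, coloured by group, with the line of equal levels. Hsp90aa1, Hsp90ab1 and Hspa8 lie at the top close to the line, and Hspa1b (19.5 in WT, 9.94 in KO) and Dnaja4 (0.798 in WT, 0.247 in KO) lie clearly below it.

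The inducible HSP70 genes were lower in KO EpiLCs. Hspa1b and Hspa1a encode nearly identical cytosolic HSP70 proteins that cells make on heat shock, and they lie side by side on chromosome 17. Hspa1b (ENSMUSG00000090877.4, chr17:35175412-35178214 of GRCm39) had 47.8, 54.5 and 62.0 CPM in WT libraries 1 to 3 and 27.3, 23.6 and 32.6 CPM in KO libraries 1 to 3. The groups did not overlap, and the means of 54.8 ± 7.12 CPM (SD, n = 3) and 27.9 ± 4.53 CPM gave a log2 fold change of −0.97 (SE 0.13, adjusted p = 4.3e-05 by edgeR with Benjamini-Hochberg adjustment). Hspa1a (ENSMUSG00000091971.4, chr17:35188166-35191132) was measured at 8.79, 10.3 and 9.31 CPM in WT and 7.52, 4.46 and 4.58 CPM in KO replicates. KO replicate 1 was the nearest to WT, no library overlapped, and the log2 fold change was −0.78 (SE 0.22, edgeR adjusted p = 0.016). Of all windows of 100 bases in the transcripts, 49.9% in Hspa1b and 48.6% in Hspa1a occur elsewhere in the genome without a mismatch, for the most part in each other, and the sources do not state how reads with several matches were counted. The division between the 2 genes is therefore uncertain. Their sum depends less on that division, but it would be too low if such reads were left out. It was 56.6, 64.7 and 71.3 CPM in WT and 34.8, 28.1 and 37.2 CPM in KO replicates, a fall from 64.2 ± 7.39 to 33.4 ± 4.73 CPM.

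The 250 bases before the start of both genes are shown because their sequences carry the element to which HSF1 binds, as does that of Hspb1, a small HSP whose level did not pass the test. They are given 5′ to 3′ on the strand of the gene from GRCm39, with starts from GENCODE M39. Each match to GAANNTTC, a core of 2 units of a heat shock element, is in capitals.
Hspa1b (chr17:35178215-35178464, minus strand): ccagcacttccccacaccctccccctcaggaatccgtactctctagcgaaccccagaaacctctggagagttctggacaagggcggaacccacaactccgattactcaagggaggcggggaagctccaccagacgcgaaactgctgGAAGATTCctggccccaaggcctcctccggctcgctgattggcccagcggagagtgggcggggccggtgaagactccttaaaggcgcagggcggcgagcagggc
Hspa1a (chr17:35191133-35191382, minus strand): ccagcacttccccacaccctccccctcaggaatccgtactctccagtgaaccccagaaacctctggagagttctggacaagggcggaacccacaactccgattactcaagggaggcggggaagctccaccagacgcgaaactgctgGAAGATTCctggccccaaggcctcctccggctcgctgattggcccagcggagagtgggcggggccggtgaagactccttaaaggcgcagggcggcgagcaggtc
Hspb1 (chr5:135916510-135916759, plus strand): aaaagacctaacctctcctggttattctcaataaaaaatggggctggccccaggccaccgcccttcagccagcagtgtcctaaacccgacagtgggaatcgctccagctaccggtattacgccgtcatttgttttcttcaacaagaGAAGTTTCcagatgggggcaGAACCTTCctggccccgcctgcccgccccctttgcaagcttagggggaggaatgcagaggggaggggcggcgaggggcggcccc
The windows of Hspa1a and Hspa1b differed at 3 of 250 positions (98.8% identical), and both hold the match between 97 and 104 bases before the start. In Hspb1 the matches lie between 97 and 104 and between 77 and 84 bases before the start. GAANNTTC, which reads the same on both strands, was found in 9 of 68 members (13.2%) and in 6.33% of the 21770 protein-coding promoters of this length. Among the members that differed between the groups, it stood in 2 of the 11 that were lower, Hspa1a and Hspa1b, and in 2 of the 9 that were higher, Hspd1 and Dnajc6. The others with a match were Dnaja1, Dnajc27, Hspb1, Hspb3 and Hspe1. A match describes these letters and is not a binding site shown by data. The other order of 2 units, TTCNNGAA, was not searched by itself. Windows without a match, such as that of Hsph1, can hold it.

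The constitutive HSP70 moved the other way. Hspa8 (ENSMUSG00000015656.18, chr9:40711630-40731039), the cognate HSP70 of all cells, had 2138, 2117 and 1716 CPM in WT and 2697, 2410.3 and 2151 CPM in KO replicates. WT replicate 3 was the lowest library, the lowest KO library lay just above the highest WT library, and the log2 fold change was 0.28 (SE 0.11, edgeR adjusted p = 0.082). This call was lost without WT replicate 3 (0.18, adjusted p = 0.29 from edgeR), KO replicate 1 (0.19, adjusted p = 0.35) or KO replicate 2 (0.29, adjusted p = 0.15). Exact copies elsewhere cover 63.8% of the 100-base windows of Hspa8. Per kb of transcript, Hspa1a and Hspa1b together reached 2.24%, 2.59% and 3.53% of the level of Hspa8 in WT libraries 1 to 3 and 1.09%, 0.987% and 1.47% in KO replicates. This ratio is formed within a library and does not depend on scaling between libraries, and it was lower in every KO library than in every WT library. That lack of overlap follows from the values above, where the sum was lower and Hspa8 higher in every KO library. It is therefore no separate result.

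The nucleotide exchange factors of the HSP110 branch divided. Hspa4l (ENSMUSG00000025757.14, chr3:40698643-40750538), a heat-inducible HSP110, had 47.9, 56.6 and 75.9 CPM in WT and 36.8, 31.4 and 36.1 CPM in KO replicates. WT replicate 3 was the highest, no library overlapped, and the log2 fold change was −0.79 (SE 0.14, edgeR adjusted p = 0.00055). Its relative Hspa4, with 945 ± 67.2 CPM in WT and 948 ± 23.9 CPM in KO (SD, n = 3), had a log2 fold change of 0.0039 with a 95% interval from −0.19 to 0.20. Hsph1, the third HSP110, had means of 152 ± 17.0 and 154 ± 15.3 CPM and a log2 fold change of 0.020 with an interval from −0.21 to 0.24. The level of Hspa4l per kb was 2.74%, 2.82% and 4.12% of that of Hspa4 in WT and 2.01%, 1.63% and 1.95% in KO replicates, again without overlap. As Hspa4l by itself was lower in every KO library and Hspa4 hardly moved, this is no separate result.

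Hspa14 (ENSMUSG00000109865.2, chr2:3489882-3513997), an HSP70 that assists nascent chains at the ribosome, rose. Its libraries had 145, 160.3 and 168 CPM in WT and 204, 212 and 199 CPM in KO, a log2 fold change of 0.38 (SE 0.096, edgeR adjusted p = 0.0086). Exons on the same strand that it shares with Msantd7 make up 28.6% of its length, and reads there could have been counted for either gene. Dnajc2, the J protein known to work with Hspa14 at the ribosome, had 160.5 ± 16.2 CPM in WT and 161 ± 11.3 CPM in KO, a log2 fold change of 0.0036 with an interval from −0.21 to 0.22. Hspa2, best known from testis, had a log2 fold change of −0.33 (interval −0.74 to 0.093), Hspa12a of 0.26 (interval −0.23 to 0.76) and Hspa12b, measured at up to 1.15 CPM, of 0.42 with the wide interval from −0.53 to 1.38. Hspa1l, a testis gene next to Hspa1a, was not tested, with 0, 4 and 5 counts in WT and 0 in each KO library, where a count of 0 allows up to 3 counts or between 0.225 and 0.242 CPM for counting error alone. In all, 2 of the 10 tested HSP70 and HSP110 genes of the cytosol rose, 3 fell and 5 did not pass the test, with a median log2 fold change of 0.012. The share called was 50%, beside 24.3% of all genes tested.

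**Figure D3:**
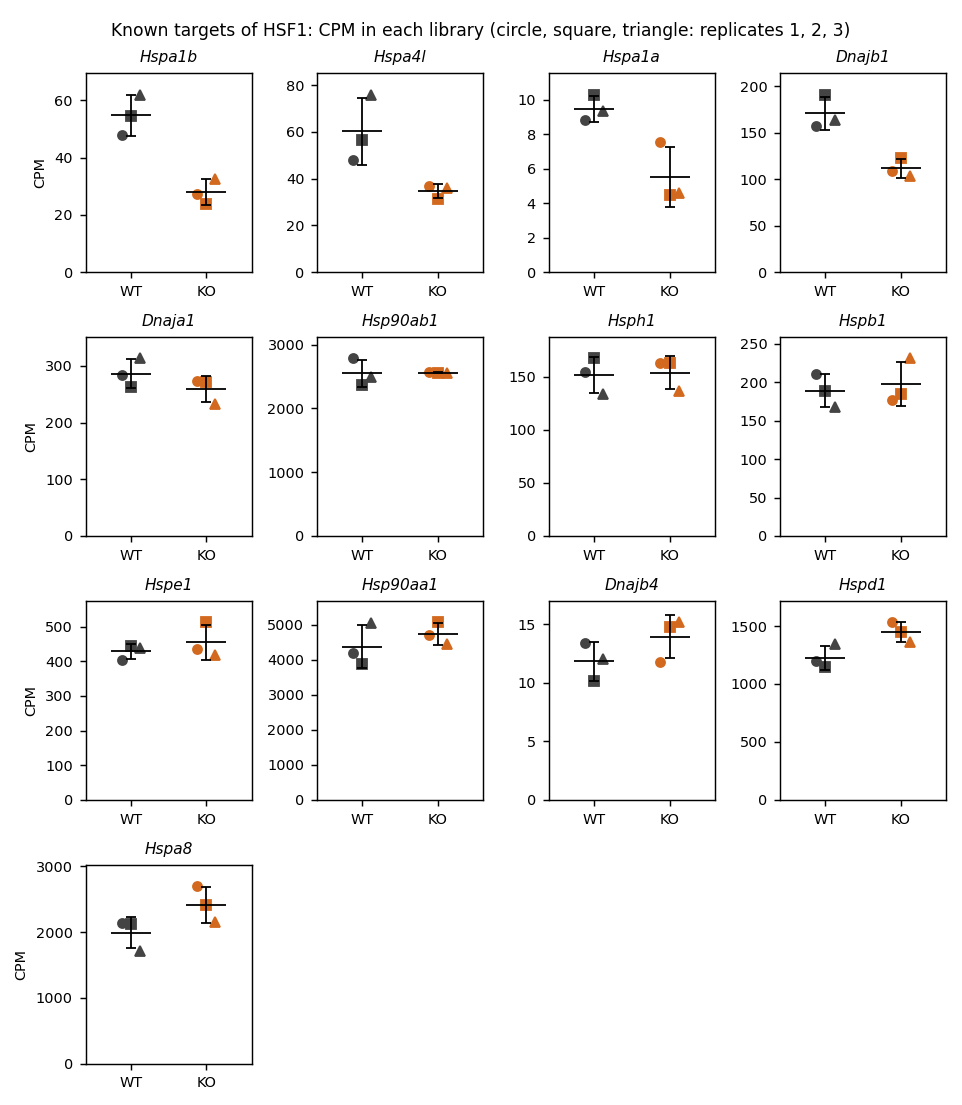
CPM of each of the 13 known targets of HSF1 in every library (y axis, from 0), WT in grey and KO in orange, with circles, squares and triangles for replicates 1 to 3 and bars for the mean and SD (n = 3), ordered by log2 fold change. In Hspa1b, Hspa4l, Hspa1a and Dnajb1 every KO library lies below every WT library, in Hspd1 and Hspa8 above, and in the other 7 genes the groups overlap.

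Neither HSP90 gene of the cytosol passed the test. Hsp90aa1, the inducible form, had 4187, 3864 and 5055 CPM in WT and 4688, 5062 and 4457 CPM in KO replicates, a log2 fold change of 0.12 with a 95% interval from −0.11 to 0.34. Hsp90ab1, the constitutive form, had 2784, 2374 and 2499 CPM in WT and 2566, 2558 and 2561 CPM in KO replicates, a log2 fold change of 0.0053 with an interval from −0.19 to 0.20. The WT and KO libraries overlapped for both genes, and both intervals lie within 0.5 of 0 on the log2 scale. Exact copies elsewhere cover 56.0% of the 100-base windows of Hsp90aa1 and 0.0% of those of Hsp90ab1. Per kb, Hsp90aa1 stood at 115%, 125% and 155% of Hsp90ab1 in WT and at 139.9%, 152% and 133% in KO replicates, an overlapping range.

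Among the small HSPs, which hold unfolded proteins for other chaperones, 2 of the 4 tested fell, none rose, and the median log2 fold change was −0.89. Of all genes tested, 12.5% were lower. The summed level of the 7 small HSPs, most of it from Hspb1, did not fall. It was 208.1 ± 20.2 CPM in WT and 208.5 ± 31.0 CPM in KO (SD, n = 3), with overlapping libraries. Hspb8 (ENSMUSG00000041548.5, chr5:116546409-116561084), a partner of Bag3 in the removal of aggregated proteins, had 12.0, 14.5 and 13.0 CPM in WT and 6.87, 7.24 and 10.4 CPM in KO replicates. KO replicate 3 came nearest to WT without reaching it, and the log2 fold change was −0.68 (SE 0.19, edgeR adjusted p = 0.014). Hspb2 (ENSMUSG00000038086.5, chr9:50662378-50663858), a small HSP best known from muscle, had 2.68, 5.55 and 3.64 CPM in WT and 2.02, 1.31 and 1.35 CPM in KO replicates, a log2 fold change of −1.33 (SE 0.34, edgeR adjusted p = 0.0081). Hspb2 lies head to head with Cryab, the gene of alpha-B crystallin, another small HSP outside the name rule, and 62.1% of its exons are antisense to annotated Cryab exons. Cryab had 2.98, 0.911 and 1.42 CPM in WT and 0.727, 0.231 and 0.375 CPM in KO replicates, a log2 fold change of −2.00 (edgeR adjusted p = 0.012). The libraries were made with a stranded kit, but whether counting used the strand is not given in the sources used here, so reads of the pair may not be separated.

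Hspb6 had 0.819, 1.64 and 2.02 CPM in WT and 0.647, 0.693 and 0.750 CPM in KO replicates. The groups did not overlap, but the log2 fold change of −1.09 (SE 0.45) missed the threshold with an adjusted p of 0.1001 by edgeR and passed it with the replicate block (adjusted p = 0.084). Hspb1, the most abundant small HSP, had 210.4, 189 and 168 CPM in WT and 178, 185 and 231 CPM in KO replicates, a log2 fold change of 0.065 with an interval from −0.17 to 0.30. Exact copies elsewhere, for the most part on chromosome 13, cover 61.6% of its 100-base windows. Hspb3, Hspb7 and Hspb9 were too low for a test. Hspb9 had 8, 5 and 0 counts in WT and 0, 7 and 5 counts in KO libraries, and its exons lie entirely antisense to Rab5c.

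**Figure D4:**
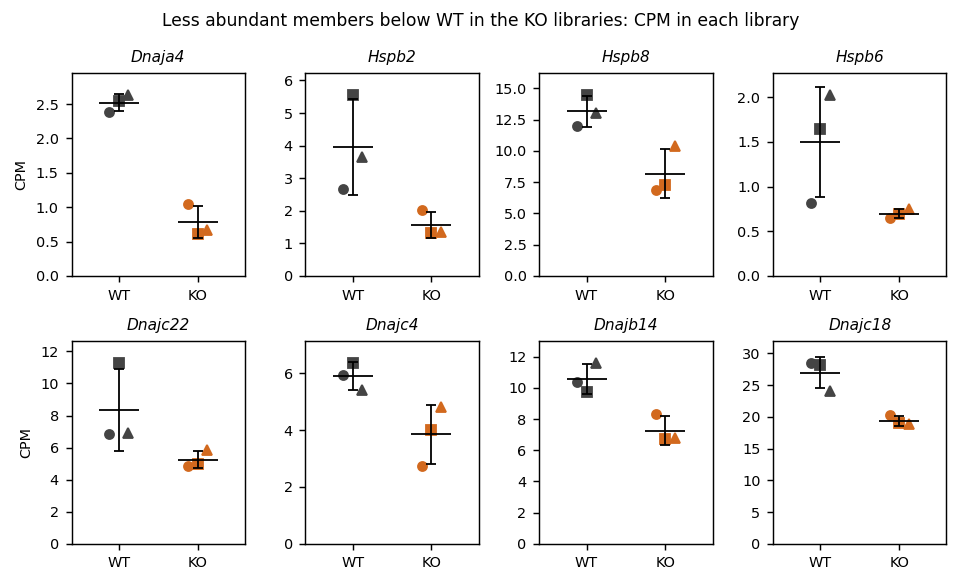
CPM in every library (y axis, from 0) of 8 less abundant members with lower KO than WT libraries, WT in grey and KO in orange, with circles, squares and triangles for replicates 1 to 3 and bars for the mean and SD (n = 3). No KO library reaches a WT library in any panel, Dnaja4 shows the widest gap as a ratio (2.38 to 2.63 CPM in WT, 0.616 to 1.05 CPM in KO), and in Dnajc22 the WT mean is raised by replicate 2 at 11.3 CPM.

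The class A and class B J proteins of the cytosol and nucleus are the main partners of Hspa8 and the inducible HSP70s, and 1 of the 10 tested rose while 2 fell, with a median log2 fold change of −0.099. These calls were 30% of the group, near the 24.3% of all genes tested. Dnajb1 (ENSMUSG00000005483.11, chr8:84334811-84339820), the heat-inducible HSP40 that also restrains HSF1, had 158, 191 and 164 CPM in WT and 108, 123 and 104 CPM in KO replicates. All KO libraries were well below the WT libraries, with means of 171 ± 17.7 and 112 ± 9.98 CPM (SD, n = 3) and a log2 fold change of −0.61 (SE 0.10, edgeR adjusted p = 0.00036). Dnaja4 (ENSMUSG00000032285.16, chr9:54606147-54623601), a class A J protein, showed the largest change of all tested members, from 2.38, 2.55 and 2.63 CPM in WT to 1.05, 0.616 and 0.675 CPM in KO replicates. Its log2 fold change was −1.69 (SE 0.37, edgeR adjusted p = 0.0032), on between 8 and 39 counts a library.

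Dnaja1, the abundant class A partner of Hspa8, had 283, 263 and 313 CPM in WT and 274, 272 and 233 CPM in KO replicates, which overlapped. Its log2 fold change was −0.14 with a 95% interval from −0.36 to 0.072, and 83.4% of its exons are antisense to other annotated genes, mainly Smu1. Per kb, Dnajb1 stood at 87.7%, 115% and 82.6% of Dnaja1 in WT and at 62.4%, 71.2% and 70.2% in KO replicates, without overlap. As Dnajb1 by itself was lower in every KO library, this is no separate result. Dnaja2 and Dnajb13, a gene of the sperm axoneme, missed the threshold with log2 fold changes of −0.19 and −0.84 (adjusted p = 0.21 and 0.11 from edgeR) and passed it with the replicate block (adjusted p = 0.093 and 0.088).

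Dnajb2, a J protein that binds ubiquitin and is known from neurons, rose with a log2 fold change of 0.42 (edgeR adjusted p = 0.083), a call that was lost with WT replicate 1 or 3 left out (0.32 and 0.45) or KO replicate 1 or 3 left out (0.42 and 0.33). DESeq2 did not call Dnajb2 either. Dnajb6, which keeps proteins from aggregating, had 114, 106 and 106 CPM in WT and 128, 131 and 123 CPM in KO replicates, with no overlap. Its log2 fold change of 0.23 had an adjusted p of 0.1002 by edgeR and of 0.057 with the replicate block, and exact copies elsewhere cover 70.2% of its 100-base windows. Dnajb3, Dnajb4 and Dnajb5 had log2 fold changes between −0.055 and 0.23, with overlapping libraries.

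Of the 12 chaperones and J proteins of the ER, 2 rose, 2 fell and 8 did not pass the test, with a median log2 fold change of 0.0012. The 33.3% called stood beside 24.3% of all genes tested. The main folding machinery lay near 0. Hspa5, the ER HSP70 known as BiP, had 720.0, 816 and 769.9 CPM in WT and 875, 811 and 718 CPM in KO replicates, a log2 fold change of 0.060 with a 95% interval from −0.15 to 0.27. Hsp90b1, the ER HSP90, had 505, 439 and 583 CPM in WT and 543, 536 and 481 CPM in KO, a log2 fold change of 0.030 (interval −0.19 to 0.26), and Dnajc3, which binds BiP and the kinase PERK, one of 0.069 (interval −0.18 to 0.31). The libraries of the groups overlapped for these 3 genes. Of the exons of Hspa5, 44.2% are antisense to Rabepk.

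These 3 were also the only members whose 250-base windows hold CCAAT, 9 bases of any kind and CCACG, the ER stress element read by the unfolded protein response, found on either strand in 4.41% of members and 0.115% of all promoters. The sites are shown for that reason, 30 bases each on the strand of the gene, with the match in capitals.
Hspa5 (chr2:34662032-34662061, 49 to 67 bases before the start): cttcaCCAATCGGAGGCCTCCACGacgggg
Hsp90b1 (chr10:86541496-86541525, 124 to 142 bases before the start): caagcCCAATCGCAAGGAGCCACGcttcgg
Hsp90b1 (chr10:86541391-86541420, 19 to 37 bases before the start): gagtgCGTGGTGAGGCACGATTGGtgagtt
Dnajc3 (chr14:119175234-119175263, 88 to 106 bases before the start): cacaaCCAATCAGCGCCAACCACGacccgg
Dnajb9, an ER J protein that the unfolded protein response induces, had 9.38, 12.9 and 10.3 CPM in WT and 15.8, 13.3 and 11.3 CPM in KO replicates, a log2 fold change of 0.31 with an interval from −0.061 to 0.69.

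The ER members that rose were Dnajb11 and Hspa13, both on chromosome 16. Dnajb11 (ENSMUSG00000004460.18, chr16:22676587-22698384), a soluble J protein of the ER lumen, had 123, 119 and 118 CPM in WT and 196, 184 and 159.5 CPM in KO replicates, a log2 fold change of 0.59 (SE 0.10, edgeR adjusted p = 0.00034). Hspa13 (ENSMUSG00000032932.16, chr16:75542319-75563992), a small HSP70 relative of microsomes, had 35.1, 34.0 and 39.6 CPM in WT and 61.3, 60.5 and 50.2 CPM in KO replicates, a log2 fold change of 0.66 (SE 0.12, edgeR adjusted p = 0.00046). Those that fell are J proteins anchored in the ER membrane. Dnajb14 (ENSMUSG00000074212.8, chr3:137573436-137622320) had 10.3, 9.74 and 11.6 CPM in WT and 8.33, 6.70 and 6.75 CPM in KO replicates, a log2 fold change of −0.55 (SE 0.18, edgeR adjusted p = 0.040). The call was lost without WT replicate 3 (−0.47), KO replicate 2 (−0.49) or KO replicate 3 (−0.50), each with an adjusted p of 0.13 by edgeR. Dnajc18 had 28.5, 28.2 and 24.1 CPM in WT and 20.3, 19 and 18.8 CPM in KO replicates, a log2 fold change of −0.47. Dnajb12, the closest relative of Dnajb14, had overlapping libraries and a log2 fold change of −0.10 (interval −0.36 to 0.15). Dnajc1, Dnajc10 and Dnajc16 had log2 fold changes between −0.079 and −0.028.

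In the mitochondrion, 2 of 10 members rose and 1 fell, with a median log2 fold change of 0.080. This share of 30% was near the 24.3% of all genes tested. Hspd1 (ENSMUSG00000025980.15, chr1:55116989-55171038), the HSP60 chaperonin, had 1194, 1143 and 1344 CPM in WT and 1532, 1448 and 1366 CPM in KO replicates. The lowest KO library was just above the highest WT library, and the log2 fold change was 0.24 (SE 0.097, edgeR adjusted p = 0.096). This call was lost in 5 of 6 libraries left out in turn. The log2 fold change was 0.22 without WT replicate 1 and 0.19 without WT replicate 2, and it was 0.20, 0.24 and 0.28 with KO replicates 1, 2 and 3 left out, with adjusted p between 0.11 and 0.30 by edgeR. Exact copies elsewhere cover 34.2% of the 100-base windows of Hspd1. Hspe1, the HSP10 lid of the same chaperonin, had 404, 444 and 437 CPM in WT and 435, 512 and 417 CPM in KO replicates, a log2 fold change of 0.085 with an interval from −0.12 to 0.30.

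Hspd1 and Hspe1 start 107 bases apart on opposite strands of chromosome 1 and share the stretch between them. It is shown because it holds the only matches among the members to GAANNTTC followed by any 2 bases and GAA, a heat shock element of 3 units, searched on both strands and found in 0.349% of all promoters. The stretch holds 2 such matches, 1 on each strand, which overlap in the same GAANNTTC, so that these 2 genes count under both motifs. On the strand of Hspe1, the run of 4 alternating units that both matches cover is in capitals.
Hspe1 (chr1:55127212-55127241, 56 to 73 bases before its start): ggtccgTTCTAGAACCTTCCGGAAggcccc

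Hspa9, the mitochondrial HSP70 known as mortalin, had 1162, 1215 and 1186 CPM in WT and 1311, 1253 and 1189.7 CPM in KO replicates, a log2 fold change of 0.075 with an interval from −0.12 to 0.27. Its J partner Dnaja3 (ENSMUSG00000004069.18, chr16:4457853-4528239) rose from 104, 120.2 and 108 CPM in WT to 154, 169 and 163 CPM in KO replicates, a log2 fold change of 0.55 (SE 0.097, edgeR adjusted p = 0.00049). It also lies on chromosome 16. Dnajc4 (ENSMUSG00000024963.13, chr19:6965275-6969995), a J protein of the mitochondrial membrane, had 5.96, 6.37 and 5.40 CPM in WT and 2.75, 4.0 and 4.80 CPM in KO replicates, a log2 fold change of −0.61 (SE 0.24, edgeR adjusted p = 0.089). It did not pass with WT replicate 1, 2 or 3 left out (−0.60, −0.56 and −0.67) or with KO replicate 1 or 2 left out (−0.42 and −0.64). DESeq2 did not call Dnajc4 either. Dnajc11, Dnajc15, Dnajc19 and Dnajc30, known from the mitochondrial membranes, the import motor and the respiratory chain, had log2 fold changes between −0.044 and 0.13 and overlapping libraries.

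Of the 15 other class C J proteins, which share the J domain and little else, 2 rose, 1 fell and 12 did not pass the test, with a median log2 fold change of 0.0036. The 20% called was near the 24.3% of all genes tested. Dnajc6, the auxilin that uncoats clathrin vesicles, rose with a log2 fold change of 0.42 (edgeR adjusted p = 0.060), but not with WT replicate 1 or 2 left out (0.32 and 0.39) or KO replicate 1 or 3 left out (0.37 and 0.45). Dnajc9, a chaperone of histones H3 and H4, had 127, 139 and 142 CPM in WT and 182, 159 and 147 CPM in KO replicates, a log2 fold change of 0.26 (edgeR adjusted p = 0.086). This call was lost with WT replicate 1 or 2 left out (0.21 and 0.27) or KO replicate 1 or 2 left out (0.17 and 0.28).

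Dnajc22 (ENSMUSG00000038009.8, chr15:98991001-99003409), known from endocytosis in the fly, fell from 6.85, 11.3 and 6.88 CPM in WT to 4.85, 5.0 and 5.85 CPM in KO replicates, a log2 fold change of −0.66 (SE 0.23, edgeR adjusted p = 0.048). WT replicate 2 was far above the others, and without it the log2 fold change was −0.39 (adjusted p = 0.30 from edgeR). The call was also lost without KO replicate 1 (−0.61) or KO replicate 2 (−0.63). Dnajc13, an endosomal J protein, had 240.0, 219.6 and 245 CPM in WT and 307, 251 and 258 CPM in KO replicates, with an adjusted p of 0.17 by edgeR and of 0.076 with the replicate block. Dnajc5 and Dnajc12 also had no overlap, with every KO library below every WT library, and log2 fold changes of −0.21 (interval −0.43 to 0.016) and −0.54 (interval −1.21 to 0.13) that did not pass. Of the 44 tested members that did not pass, 32 had a 95% interval within 0.5 of 0 on the log2 scale and 40 within 1.

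Across these groups, 13 members are known targets of HSF1, among them the largely constitutive Hspa8 and Hsp90ab1, and they did not all move one way. Of the 13, 4 fell (Hspa1b, Hspa4l, Hspa1a and Dnajb1), 2 rose (Hspa8 and Hspd1) and 7 did not pass the test, with a median log2 fold change of 0.020, while 7 of the 51 other members tested rose and 7 fell. Over all genes tested, 12.5% fell and 11.8% rose. Without Hspa8 and Hsp90ab1, 4 of the 11 fell, 1 rose and the median log2 fold change was again 0.020. The 4 that fell had between 3.19 and 48.3 CPM per kb in WT cells, far below the HSP90 genes and Hspa8. Targets near that range also did not pass, such as Dnajb4 at 2.04 and Dnaja1 at 51.4 CPM per kb in WT cells. The HSP90 genes and Hspa8 dominated the sum of the list. It was 11501 ± 564 CPM in WT and 12426 ± 591 CPM in KO (SD, n = 3), with overlapping libraries. GAANNTTC stood in 46.2% of the 13 windows, against 6.33% of all protein-coding promoters. The windows with a match include the nearly identical ones of Hspa1a and Hspa1b and the stretch that Hspd1 and Hspe1 share. Hsf1 itself had 29.2, 24.5 and 23.3 CPM in WT and 19.4, 19.1 and 21.5 CPM in KO replicates, a log2 fold change of −0.36 (SE 0.13, edgeR adjusted p = 0.071).

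Position in the genome moved with the result for some members. Genes on chromosome 16 were mostly higher in the KO clone, with a median log2 fold change of 0.55 over 471 genes tested, of which 65.4% were higher at an adjusted p below 0.1. Members on chromosome 16 were Hspa13, Dnajb11, Dnaja3 and Dnajc28, and the first 3 of them, with log2 fold changes of 0.66, 0.59 and 0.55, were the largest increases among the 64 members. Dnajc28, a mitochondrial J protein, had 4.17, 4.01 and 2.43 CPM in WT and 2.91, 4.39 and 5.03 CPM in KO replicates, a log2 fold change of 0.23 (interval −0.37 to 0.83). With the chromosome median entered as an offset, the log2 fold changes were 0.11 for Hspa13 (adjusted p = 0.58 from edgeR), 0.038 for Dnajb11 (0.85), 0.0014 for Dnaja3 (0.996) and −0.32 for Dnajc28 (0.52). Dnaja3 is itself the median gene of chromosome 16, so its value near 0 followed from the offset and is no result. In the same fit Hspd1 on chromosome 1 kept its log2 fold change of 0.24 and no longer passed (adjusted p = 0.106 from edgeR). No tested member lies on chromosome 6, where the median over 773 genes was −0.40. On all other chromosomes, 6 of 60 members rose and 11 fell (28.3%), where 21.6% of all genes there differed.

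**Figure D5:**
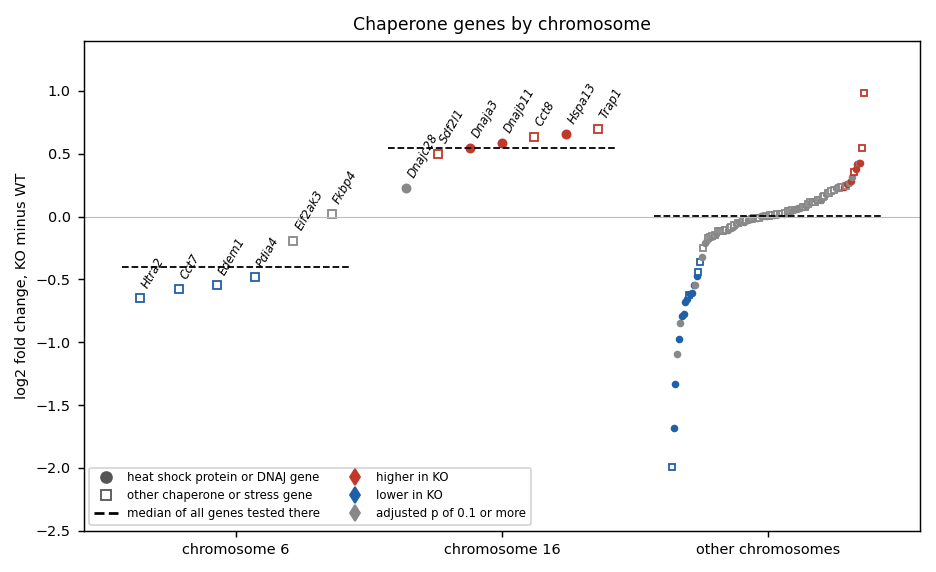
Log2 fold change (y axis, KO minus WT) of members (filled circles) and of other chaperone and stress genes (open squares) on chromosome 6, on chromosome 16 and elsewhere, ordered by value, with dashed lines for the median of all genes tested there (−0.40, 0.55 and 0.0026) and colour for those that passed an adjusted p below 0.1 by edgeR. On chromosome 16, 6 of the 7 genes are higher in KO and lie near the dashed line, and on chromosome 6, 4 of the 6 are lower.

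The lists of other chaperone and stress genes, which work with the members, held 58 tested genes outside chromosomes 6 and 16. Of these 3 rose and 4 fell (12.1%), where 21.6% of all genes there differed. With the replicate block 7 rose and 5 fell, where 30.3% of all genes tested on any chromosome passed. The difference of these lists from the members was not tested. The counts by list that follow stand beside 24.3% of all genes tested. Of 22 heat shock factors and cytosolic co-chaperones, 1 rose (Bag3, 0.55) and 3 fell (Cryab, Unc45a at −0.44 and Hsf1). Among those known to serve HSP90, Unc45a fell, Ttc4 (−0.25) passed with the replicate block (adjusted p = 0.049, against 0.108 without it, from edgeR), and Stip1, Cdc37, Ptges3 and Ahsa1 did not pass, with log2 fold changes between −0.11 and 0.028. Of 14 subunits of the chaperonin TRiC and of prefoldin, Cct8 rose by 0.64 and Pfdn6 by 0.35, and Cct7 fell by 0.57 on the log2 scale, while Pfdn1 (0.23) passed with the block and not without it (edgeR adjusted p = 0.059). Cct8 lies on chromosome 16 and Cct7 on chromosome 6. The 2 genes encode subunits of the same ring, and the other 6 TRiC subunits had log2 fold changes between −0.066 and 0.13.

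Of 20 genes of ER folding and the unfolded protein response, Sdf2l1 rose (0.50, chromosome 16) and Herpud1 (−0.63), Edem1 (−0.55) and Pdia4 (−0.48) fell, the last 2 on chromosome 6. Xbp1, Atf6, Ddit3, Calr, Canx, P4hb and Hyou1 did not pass the test, with log2 fold changes between −0.088 and 0.19, and of these Canx (0.19) passed with the block (edgeR adjusted p = 0.084). Of 11 genes of mitochondrial import, folding and proteolysis, Hscb (0.98), a J protein of iron-sulfur cluster assembly, and Trap1 (0.70, chromosome 16), the mitochondrial HSP90, rose, and the protease Htra2 (−0.65, chromosome 6) fell. The proteases Yme1l1 (0.24) and Clpp (0.23) passed with the block and not without it (adjusted p = 0.036 and 0.083 from edgeR). The nucleotide exchange factors Grpel1 and Grpel2 of Hspa9 had log2 fold changes of −0.014 and −0.029 and did not pass. With the chromosome medians as an offset, none of the 6 genes on chromosome 16 that had risen passed the test, and neither did the 4 on chromosome 6 that had fallen (adjusted p between 0.17 and 0.62 by edgeR). Fkbp4 on chromosome 6, a co-chaperone of HSP90, had a log2 fold change of 0.023 without the offset and of 0.42 with it (edgeR adjusted p = 0.0048).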

How the data were processed

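RNA-seq counts of 3 WT and 3 Oct6 KO EpiLC libraries were analysed. Reads were trimmed with Fastp after a quality check in FastQC, and the authors aligned them to GRCm39 using two-pass STAR, whose raw counts per gene were deposited without normalization or filter. The STAR version, the annotation release, the strand setting and the treatment of reads with several matches are not given in the sources used here. Ensembl identifiers were matched to GENCODE M39 for symbols, biotypes and positions (54749 of 55416 rows; the other 667 held 0.0602% of the counts).

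The groups were compared with edgeR 4.0.16 in R 4.3.3 (quasi-likelihood test, TMM, filterByExpr with a minimum count of 10, genotype as the only term) over 15746 genes with Benjamini-Hochberg adjustment, and called at an adjusted p below 0.1, the threshold of the study. The study's list of differentially expressed genes also required a log2 fold change of at least 1 in size. Standard errors came from the F statistic, and intervals are at 95%. The common dispersion of 0.0137 (a biological coefficient of variation of 11.7%) and 3 libraries a group set the precision. Scripts were tested on simulated data. Libraries of a group were no copies of each other (chi-square per degree of freedom 6.89 to 11.7). The design text calls the replicates paired, and deviations from the group means of same-numbered libraries correlated at 0.257, 0.298 and 0.122 over 13078 genes. The replicate block is therefore given where it changes a call.

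Alternatives were DESeq2 1.42.0, RLE size factors, library totals, no filter, a minimum of 10 counts per library, a replicate block, robust estimation, an offset for chromosomes 6 and 16, stricter thresholds and each library left out. Motifs were searched in the 250 bases before the start of the canonical transcript on GRCm39, and 100-base windows of transcripts against the whole genome. Genes were named by rule: members called with a log2 fold change of 0.5 or more in size and a set of core members with values in every library, members on chromosomes 6 and 16, other called members, those next to the limit of the name rule, and called genes of the other lists. Further members, and non-members such as HSP90 co-chaperones, were named after their values were seen. The members and lists were chosen with earlier results of these data known. Of the tested members, 1 that did not pass the test is counted in the totals and is otherwise not reported here.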

Additional observations from a re-analysis of the deposited data

How the results depend on the processing

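Alternatives changed few of the 11 members that fell and more of the 9 that rose. Of the 20 calls, 9 passed in every refit in which the gene was tested, 8 of the 11 lower (Dnaja4, Dnajb1, Dnajc18, Hspa1a, Hspa1b, Hspa4l, Hspb2 and Hspb8) and 1 of the 9 higher (Hspa14), and none of the 20 turned its direction in any of the 14 refits. Between 13 and 17 members were called with 1 library left out, between 4 and 7 higher and between 8 and 12 lower, with the fewest called and the fewest higher without KO replicate 1. Scaling by library totals left 5 members higher (13 lower), and the chromosome 6 and 16 offset also left 5 (11 lower), having removed Dnaja3, Dnajb11, Hspa13 and Hspd1 (adjusted p = 0.106). At an adjusted p below 0.05, 4 were higher, and with a log2 fold change of 1 or more in size as well, 2 were called, 0 higher and 2 lower. DESeq2 called 19, of which 18 were among the 20, with Dnajb2 and Dnajc4 lost and Dnajb6 gained, and edgeR without a filter called 16. Dnajb2, Dnajc9, Hspa8 and Hspd1 were lost with library totals. With the replicate block, 25 were called (11 higher, 14 lower), among them all 20, and Dnajb6, Dnajc13, Dnaja2, Dnajb13 and Hspb6 were gained; pairing changed no other call among the members.

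Library totals shifted the median of all genes to −0.023 on the log2 scale and turned the sign of Hsp90ab1 (−0.0195), Hspa4 (−0.0200) and Hsph1 (−0.0055), as did the absence of a filter for Hsp90ab1 (−0.0018) and Hspa4 (−0.0040), and the offset for Dnajc28 (−0.318). With 1 library left out, log2 fold changes that crossed 0 ran from −0.044 to 0.055 for Hspa4, from −0.050 to 0.070 for Hsp90ab1, from −0.067 to 0.10 for Hsph1, from −0.071 to 0.14 for Hsp90b1, from −0.061 to 0.15 for Hspb1, from −0.029 to 0.21 for Dnajc3, from −0.0095 to 0.13 for Hspa5 and from −0.0083 to 0.15 for Hspe1. None of these genes had passed the test. The cause of these shifts was not tested. With 3 libraries a group and 1 clone, depth limits the members under 5 CPM most.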
